A study of Mus musculus with 10 samples.

Results

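Of 64911 accessible regions mapped in the neonatal mouse cochlea, 4811 (7.41%) were called at postnatal day 8 (P8) and at neither of the earlier ages, day 2 (P2) and day 5 (P5). They were found by merging peaks of the 3 deposited lists, 1 per age, that overlapped by at least 1 bp, and by keeping the merged regions with a P8 peak and no P2 or P5 peak. They made up 11.0% of the 43787 regions called at P8. The calls and the rank of a peak in its list therefore chose them, and both are given here as a description. The assay was ATAC-seq, which lets a transposase insert adapters where DNA is open, and the mice were CD1, an outbred stock. Both cochleae of each animal were combined, and the groups comprised 3 animals aged P2, 3 aged P5 and 4 aged P8. They differed in age alone as far as the labels go, with no treatment and no altered allele named. Nuclei were taken from the whole dissected tissue without sorting, so hair cells, supporting cells, lateral wall, nerve, blood, cartilage and bone may all have contributed nuclei. A higher share of a cell type in the tissue and a newly opened site in a constant cell type cannot be told apart in such lists. Each age gave 1 list over its animals, so no difference between ages has a replicate check and no p-value is given. Intervals are Wilson 95% intervals of shares and cover counting error only.

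Enhancers and promoters that bind transcription factors lose nucleosomes and become open to the transposase, and many distal elements are open in a single cell type or stage. Between birth and the onset of hearing, the mouse cochlea remodels the greater epithelial ridge, a transient epithelium beside the sensory cells, and finishes the tectorial membrane over the hair cells. In the same days its gap junctions and stria vascularis mature, thyroid hormone acts on its epithelium, and the capsule around it turns from cartilage into bone.

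Regions called only at P8 were of 2 kinds, which were separated after the data were seen. A listed peak is a window of 499 bp, while the span of the underlying peak in each of the 2 inputs of a list is given beside it. In 255 regions (5.30%, 4.70 to 5.97) the P8 input spans overlapped those of a P2 or P5 peak although the 499 bp windows did not. These are called displaced windows below, and their median distance to the nearest peak of another age was 142 bp. The other 4556 regions (10.4% of those called at P8) had no such overlap and are called stand-alone. Their median distance to another peak was 8300 bp, and the middle 50% lay 3402 to 17744 bp away. Overlap of the spans was found for 4.16% of the regions called only at P2 and 4.19% of those called only at P5.

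Promoters were set side by side for the 2 kinds. Of the members, 182 overlapped 199 of 32851 promoter windows in the RefSeq table (build GRCm38.p6, the same as mm10). Of these windows 150 met stand-alone regions and 49 met displaced ones. The 250 bases upstream of the start are shown 5′ to 3′ in the direction of transcription for 6 genes, chosen to set the displaced and stand-alone kinds side by side. Ptpn22, Ibsp and Cilp2 were picked after their values were seen. Zfp46 (chr4:136285817-136286066, plus strand) and Kansl1 (chr11:104442321-104442570, minus strand) lay under displaced windows. Zfp932 (chr5:109996260-109996509, plus strand), Ptpn22 (chr3:103860027-103860276, plus strand), Ibsp (chr5:104299037-104299286, plus strand) and Cilp2 (chr8:69887393-69887642, minus strand) lay under stand-alone regions. Capitals mark matches on either strand to the GC box (GGGCGG), the CCAAT box (CCAAT), the TATA box (TATAAA), the Runx core (TGTGGT), the Cre half-site (TGACG) or the Ets core (CCGGAA).
Zfp46: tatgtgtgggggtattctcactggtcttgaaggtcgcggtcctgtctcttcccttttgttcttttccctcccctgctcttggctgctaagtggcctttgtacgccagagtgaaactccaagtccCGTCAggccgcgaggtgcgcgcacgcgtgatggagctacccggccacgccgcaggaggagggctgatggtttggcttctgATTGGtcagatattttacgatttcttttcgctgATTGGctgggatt
Kansl1: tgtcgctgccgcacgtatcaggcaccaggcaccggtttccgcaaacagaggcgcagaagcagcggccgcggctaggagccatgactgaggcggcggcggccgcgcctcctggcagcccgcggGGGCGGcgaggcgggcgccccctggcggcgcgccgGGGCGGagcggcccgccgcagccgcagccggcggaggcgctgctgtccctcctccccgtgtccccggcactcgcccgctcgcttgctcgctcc
Zfp932: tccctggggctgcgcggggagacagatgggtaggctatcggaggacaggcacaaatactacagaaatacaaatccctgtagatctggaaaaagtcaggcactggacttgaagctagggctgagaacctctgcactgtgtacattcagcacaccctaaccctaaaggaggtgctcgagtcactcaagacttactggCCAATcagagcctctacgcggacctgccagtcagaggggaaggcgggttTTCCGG
Ptpn22: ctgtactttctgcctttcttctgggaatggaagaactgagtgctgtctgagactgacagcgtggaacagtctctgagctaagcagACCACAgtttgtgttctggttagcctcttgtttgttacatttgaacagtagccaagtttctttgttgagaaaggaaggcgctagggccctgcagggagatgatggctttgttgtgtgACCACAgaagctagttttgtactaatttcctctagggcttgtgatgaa
Ibsp: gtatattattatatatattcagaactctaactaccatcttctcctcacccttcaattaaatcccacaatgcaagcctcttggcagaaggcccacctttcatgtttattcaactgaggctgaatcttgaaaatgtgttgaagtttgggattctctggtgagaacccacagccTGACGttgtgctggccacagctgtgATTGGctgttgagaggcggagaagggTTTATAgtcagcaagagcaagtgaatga
Cilp2: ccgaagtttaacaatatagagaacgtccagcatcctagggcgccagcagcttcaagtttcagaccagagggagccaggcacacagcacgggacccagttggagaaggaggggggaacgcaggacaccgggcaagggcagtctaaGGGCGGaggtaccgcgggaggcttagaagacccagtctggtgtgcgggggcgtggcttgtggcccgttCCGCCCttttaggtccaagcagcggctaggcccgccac
The displaced Kansl1 and the stand-alone Cilp2 sequence each held 2 GC boxes. Cilp2 was picked after its values were seen, so the printed sequences cannot show whether the kinds differ. The displaced promoters ranked between Zfp46 and Kansl1 are not printed. Of these, Zfp768 held 3 GC boxes, Tfeb 1, and Garnl3 held no GC box. The displaced Zfp46 sequence held no GC box but 2 CCAAT boxes and 1 Cre half-site. The Zfp932 sequence held 1 CCAAT box and 1 Ets core, and the Ptpn22 sequence 2 Runx cores. The Ibsp sequence held 1 TATA box, 1 CCAAT box and 1 Cre half-site. A match is a description of the letters and not a site of binding.

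Over all windows, the kinds differed in their median base composition. Promoter windows under displaced members had a median GC content of 64.8% (57.6 to 73.2 for the middle 50%) and 17 CpG dinucleotides. Those under stand-alone members had 52.2% (47.7 to 57.1) and 5 CpG, near the 52.4% and 6 CpG of all windows in the table. Windows under regions called at all 3 ages had 61.6% and 17 CpG. A GC box was present in 63 of the 199 windows under members, and 31 of these were among the 150 stand-alone ones. The motif shares that follow are those of the stand-alone windows and not of the displaced ones. A GC box was present in 20.7% (15 to 27.8) of the windows under stand-alone members, in 63.2% of those called at all 3 ages and in 32.7% of all windows. The Ets core was present in 8.00% (4.64 to 13.5), 24.0% and 12%. In the other direction, the Runx core was found in 18.7% (13.2 to 25.7) of the stand-alone windows, against 9.83% at all 3 ages and 14.0% of all windows. For the AP-1 motif (TGANTCA) these shares were 9.33% (5.64 to 15.1), 3.59% and 6.75%. For the nuclear receptor half-site (AGGTCA) they were 16.7% (11.6 to 23.4), 9.32% and 14.0%. Thus for these 3 motifs the stand-alone windows lay above those called at all ages, while their intervals held the share of all windows. The TATA box was in 12% (7.73 to 18.2) of stand-alone windows, 5.12% of those called at all 3 ages and 12.4% of all windows. The Mef2-like motif (TATTTA), which can overlap a TATA box, was in 11.3% (7.20 to 17.4), 5.74% and 12.7%. Both thus showed the same pattern. The E-box (CACGTG) was in 5.33% (2.73 to 10.2), 8.74% and 6.02%. The CCAAT box was in 24.0% (17.9 to 31.4), 36.6% and 33.8%, and the Cre half-site in 16.0% (11.0 to 22.7), 28.7% and 17.8%.

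The members stood low in the P8 list. A peak's within-list percentile runs from 0 at the bottom to 100 at the top of the ranking value deposited by the authors (a −log10 p-value), and tied peaks share a percentile. The median percentile of the members was 16.1, with the middle 50% between 6.85 and 28.5, and their median ranking value was 16.8 against 29.7 for the whole list. Low rank was shared by the other single-age sets, with median percentiles in their own lists of 16.7 (only at P2) and 14.1 (only at P5). An irreproducible discovery rate (IDR) of at most 0.01 was reached by 44.3% (42.9 to 45.7) of the members' peaks and by 81.0% of the list. For the peaks called only at P2 it was 55.0% against 84.6% of their list, and for those only at P5 37.3% against 81.9%. The share of P8-called regions that were called only at P8 fell with rank, from 38.5% between percentiles 0 and 10 through 19.3% between 20 and 30 and 7.01% between 40 and 50 to 1.28% between 60 and 70. In the lowest of these bands that was 1683 of 4376 regions. Only 265 members lay in the upper 50% of the list, 24 in its upper 20% and 3 in its upper 10%.

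**Figure D1:**
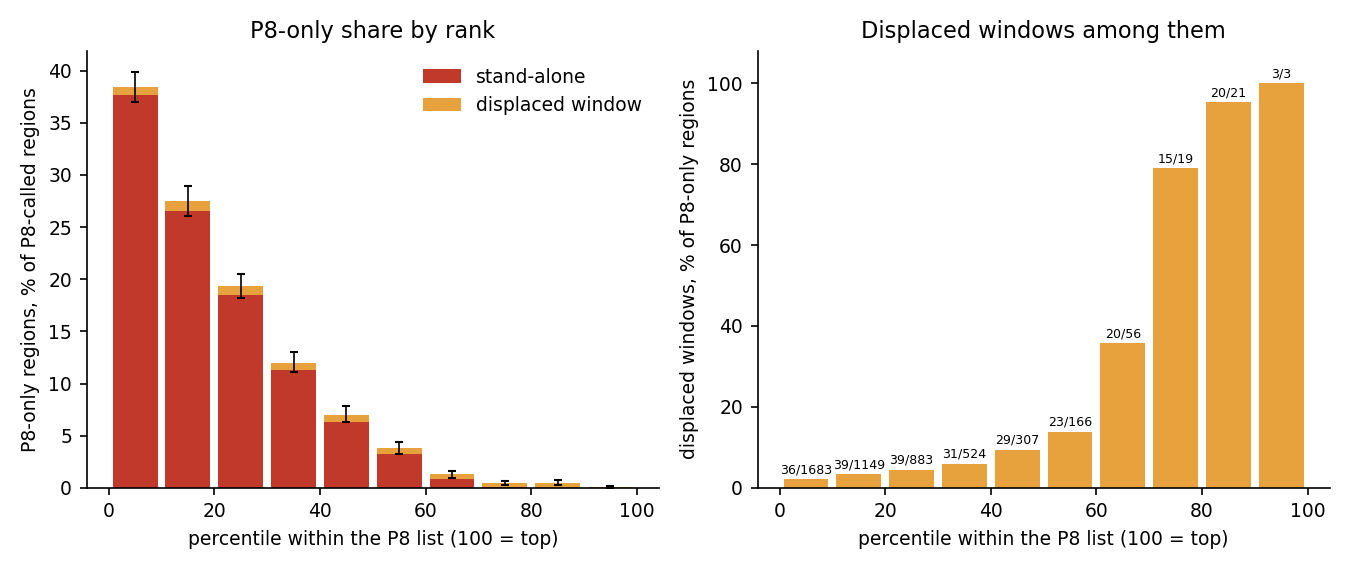
Left, regions called only at P8 as a percentage of P8-called regions in each band of 10 percentiles of the P8 list, split into stand-alone regions (red) and displaced windows (orange), with Wilson 95% intervals of the total. Right, displaced windows as a percentage of the members in each band, with their counts; the left share falls from 38.5% at the bottom of the list, while 23 of the 24 members in the upper 20% are displaced windows.

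The lists also reached down to different values. The lowest ranking value was 19.5 in the P2 list, 13.5 in the P5 list and 11.4 in the P8 list. Of the members, 3402 (70.7%, 69.4 to 72.0) had a ranking value under the lowest of the P2 list, against 25.7% of all P8 peaks. For the lowest value of the P5 list these shares were 15% (14.1 to 16.1) and 5.11%. The depth of the libraries is unknown from these files, so a value on this scale does not mean the same at each age, and the part of depth in the calls was not tested. The 2 inputs of the P8 list differed alike for members and list, with a median log2 ratio of input 1 to input 2 of 0.40 and 0.38.

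The top of the set was made of displaced windows. Of the 24 members in the upper 20% of the P8 list, 23 were displaced (95.8%, 79.8 to 99.3), and in the lower 50% it was 3.83% (3.31 to 4.43). The highest of all lay in Nmt2, the gene of an N-myristoyltransferase, at chr2:3284751-3285249. It ranked 507 in the P8 list (percentile 98.8), but a P5 peak of percentile 98.4 lay 464 bp away. Next came the start of Zfp46, a zinc finger gene, at percentile 94.9 with a P2 peak of percentile 91.0 lying 53 bp away, and a window in Odf2 at 93.8 with a P2 peak of 92.6 at 285 bp. Windows in Cpsf7, an mRNA cleavage factor gene, St3gal1, Idh1, Tfeb, Garnl3, Chd1, Tesmin, Fam98c, Rpl39, Rab34 and Kansl1 and beside Zfp768 filled the places down to percentile 84.3. Each of these 15 windows had a peak of another age at most 800 bp away, at a percentile of 84.4 to 98.4. In each case the input spans of the P8 peak and of a peak of another age overlapped.

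Stand-alone members began lower in the list. The highest lay at the start of Zfp932, a zinc finger gene, at chr5:109996241-109996739 with percentile 81.0, and the nearest other peak was 26976 bp away. The second, at chr2:148206494-148206992 with percentile 74.6, had Foxa2, a forkhead factor gene, as its nearest protein-coding gene at a distance of 159774 bp. A region in Auts2 followed at 72.7 and one in Acot12, an acyl-CoA thioesterase gene, at 72.2. The region in Gsr, the gene of glutathione reductase, stood at 70.4 and the one in Ttll11 at 69.3. In the upper 50% of the list 184 members were stand-alone. Foxa2, Acot12, Gsr and Ttll11 were named after their values were seen.

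At the edge of the rule, 16 P8 peaks had 0 to 9 bases between them and a peak of another age and so were kept, with a median percentile of 50.4. Another 9 overlapped one by 1 to 10 bp and so were dropped, with a median of 20.8. Peaks that overlapped another age did so by a median of 495 bp, and 514 of them (1.32%) by less than 50% of their width.

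The members lay away from gene ends. The middle of 529 of them (11.0%, 10.1 to 11.9) lay within 1 kb of an end of an annotated gene, against 33.5% (33.0 to 33.9) of the P8 regions also called at another age. Regions called only at P2 had 15.9% (15.2 to 16.6) and those called only at P5 8.74% (7.92 to 9.64), so the P8 set lay between them. Displaced members had 37.3% (31.6 to 43.3), and stand-alone members 9.53% (8.71 to 10.4). A transcription start of a protein-coding gene lay within 1 kb of 180 members (3.74%, 3.24 to 4.32), whereas it did so for 21.8% of P8-called and 27.6% of all-age regions. It did so for 6.88% of the regions called only at P2 and 2.75% of those called only at P5. The median distance to such a start was 50897 bp for the members, 27497 bp for P8-called regions, 42148 bp for regions called only at P2 and 67508 bp for those called only at P5. Over 100 kb from any start lay 33.3% (32.0 to 34.6) of the members and 24.7% of P8-called regions. The same held for 29.9% of the regions called only at P2 and 40.1% of those only at P5. Of members 1 to 100 kb from the nearest start, 39.9% (38.2 to 41.7) were upstream of it, against 44.4% of P8-called regions. Regions called only at P2 and only at P5 had 42.7% and 42.2% upstream.

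Within genes, they were spread along the body. Protein-coding genes held 56.1% (54.7 to 57.5) of the members, 52.6% of the P8 regions shared with another age, 55.8% of the regions called only at P2 and 49.8% of those called only at P5. Along the direction of transcription, the 4 equal parts of the host gene held 27.2%, 25.3%, 25.1% and 22.4% of the members inside genes. The first part held 26.9% for regions called only at P2 and 24.6% for those called only at P5, so the even spread was shared by the single-age sets. For P8-called regions that part held 40.6%, and for regions of all 3 ages 45.0%. The host genes were long, with a median of 114 kb (50.1 to 244 for the middle 50%) against 79.7 kb for P8-called regions and 67.9 kb for regions of all 3 ages. For regions called only at P2 it was 104 kb and for those called only at P5 142 kb. A position along the body was known for 2116 of the members.

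**Figure D2:**
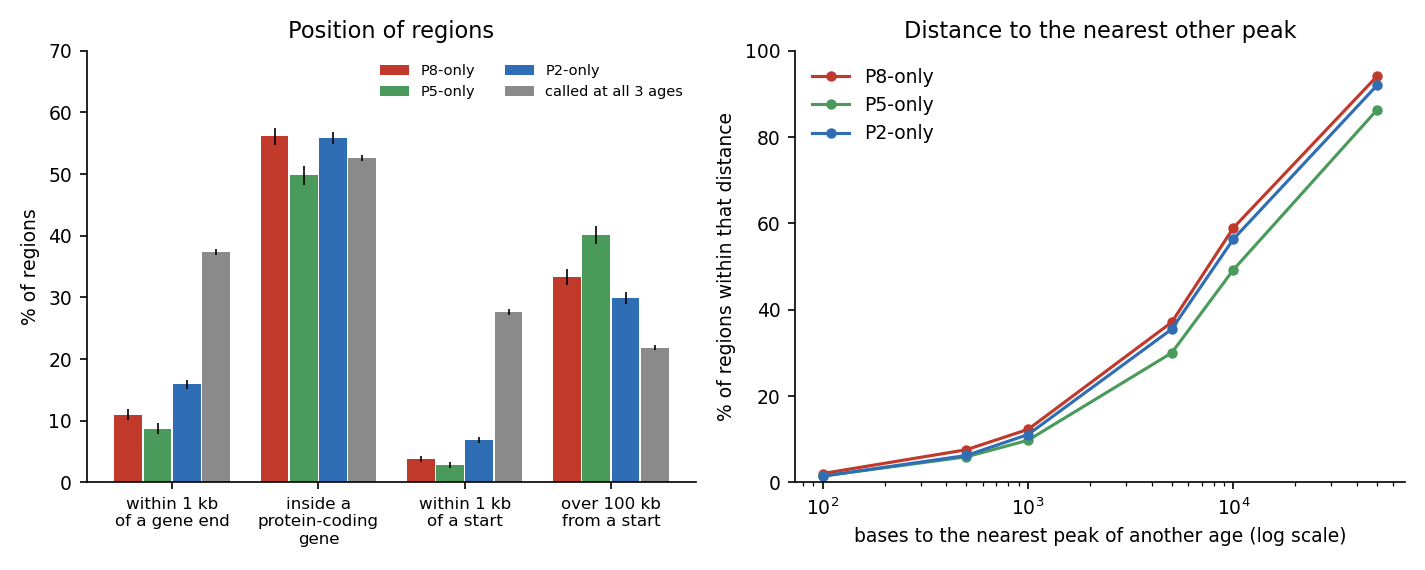
Left, percentage of regions within 1 kb of a gene end, inside a protein-coding gene, within 1 kb and over 100 kb of a protein-coding start, with Wilson 95% intervals, for each single-age set and for regions called at all 3 ages. Right, cumulative percentage of each single-age set with a peak of another age within a distance (log scale); 11.0% of the P8 set and 37.4% of the all-age regions lie near a gene end, and 59.0% of the P8 set has another peak within 10000 bp.

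Most members had an element of another age in the neighbourhood. A P2 or P5 peak lay within 1000 bp of 12.3% (11.4 to 13.3), within 10000 bp of 59.0% (57.6 to 60.4) and within 50000 bp of 94.1% (93.4 to 94.7). Within 10000 bp the shares were 56.4% for regions called only at P2 and 49.3% for those called only at P5. The nearest other peak belonged to the P2 list for 57.7% of the members and to the shorter P5 list for 42.3%. Its median percentile in its own list was 39.8. miRNA hairpins of the RefSeq table lay in 2 members, in Zmiz1 and in Trib2, which is 0.0416% (0.0114 to 0.151) against 0.116% of P8-called regions.

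Members followed one another along the chromosome slightly more often than their overall share. Of 4808 members with a following P8-called region on the chromosome, that next region was again called only at P8 for 623 (13.0%, 12 to 13.9), beside the overall 11.0%. Away from gene ends the shares were closer, at 15.6% (14.5 to 16.7) and 14.2%. The regions called only at P2 gave 21.6% against 19.8% and those called only at P5 11.2% against 8.73%. Most members, 3664, stood singly between other P8-called regions, and 1147 (23.8%, 22.7 to 25.1) fell into 524 runs. There were 439 runs of 2, 72 of 3, 12 of 4 and 1 of 5.

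The run of 5 lay in Map2k5, the gene of a mitogen-activated protein kinase kinase, on chromosome 9 from 63193470 to 63369535, a span of 176 kb. Its members stood at percentiles 8.18 to 35.6, and 3 regions of other ages lay between them. Map2k5 had 6 P8-called regions in all, 4 at P2 and 2 at P5. The tightest run of 4 covered 32.3 kb beyond the end of Trpm3, a cation channel gene, at chr19:23006483-23038756, with percentiles of 0.716, 20.1, 37.7 and 18.1. No region of another age lay inside it, and the nearest was 18008 bp away. Runs of 4 without regions of other ages inside also lay upstream of Id2, in Tbl1xr1, a corepressor subunit gene (44.1 kb), in Cacna1d, a calcium channel gene of inner hair cells (97.8 kb), in and beside Cdh2, the gene of N-cadherin (104 kb), and between Lpp and Tprg (187 kb). The other runs of 4 lay at Prkar1b, Itga11, Lrig2, Peli2, Nuak1 and Alx4 with Ext2. Among the runs of 4 or 5, the Itga11 run held 1 displaced window and the others none. The runs beyond the 5 longest were named after their values were seen.

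Id2 encodes an inhibitor of basic helix-loop-helix factors that is expressed in supporting cells. Its 4 members within 100 kb lay at chr12:25110288-25151213, 14.4 kb, 23.3 kb, 47.5 kb and 54.9 kb upstream of the start. In the order given they stood at percentiles 57.4, 8.18, 30.5 and 1.47 of the P8 list. The remaining 4 regions of Id2 lay between 5.0 kb upstream and 3.7 kb downstream of the start and were called at all 3 ages. That at the start had percentiles of 94.1 (P2), 92.4 (P5) and 95.1 (P8). The calls at Id2 thus rose in number from 4 at P5 to 8 at P8, with the added ones all upstream. The members 23.3 kb and 54.9 kb upstream had ranking values of 14.6 and 12.4, under the lowest of the P2 list (19.5). The value of 12.4 also lay under the lowest of the P5 list (13.5). The members at 14.4 kb and 47.5 kb had 34.7 and 21.2.

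Over the genome the members were spread thinly. Of 941 bins of 1 Mb with at least 20 P8-called regions, 37 held no member. The highest share was 9 of 25 regions (36.0%, 20.2 to 55.5) on chromosome 15 from 7000001 to 8000000. That bin holds Egflam with 4 members, Lifr, a cytokine receptor gene, with 3 and Wdr70 with 2, and 2 of the 9 were displaced. It was followed by 8 of 23 (34.8%, 18.8 to 55.1) on chromosome 3 from 131000001, at Papss1, an enzyme of sulfate activation, Lef1, a nuclear effector of Wnt signalling, and Sgms2. On chromosome 11 from 31000001, 7 of 21 regions at Bod1, Cpeb4 and Stc2 were members, on chromosome 19 from 23000001, 8 of 26 at Trpm3 and its neighbours Fam189a2, Mamdc2, Ptar1 and Smc5, and on chromosome 17 from 73000001, 7 of 23 at Lclat1, Xdh, Capn13 and Galnt14. These are the highest of many bins, so their shares are a description. Between the numbered chromosomes the share ran from 9.07% (8.06 to 10.2) on chromosome 7 to 13.1% (11.6 to 14.7) on chromosome 13. Chromosome X stood below, with 49 of 675 regions (7.26%, 5.53 to 9.47). On chromosome X the regions called only at P2 had 19.5% (17.0 to 22.3) and those called only at P5 7.27% (5.64 to 9.33), near their overall 19.8% and 8.73%.

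A protein-coding gene lay within 100 kb of 4263 members, and these were assigned to 3061 genes, which is 21.0% of the 14571 genes with a P8-called region. Most of these genes, 2278, had 1 member, 525 had 2, 222 had 3 or 4, and 36 (0.247%) had 5 or more. The counts are not corrected for gene length. Auts2, a chromatin regulator gene of neural development 1110 kb long, had 10 members among 36 P8-called regions. All 10 lay inside the gene and were stand-alone, at percentiles from 1.47 to 72.7. Auts2 also had 7 regions called only at P2 and 8 only at P5. Trpm3 had 9 of 31, of which 5 lay inside the gene, with 5 regions called only at P2 and 4 only at P5. Nav2 had 8 of 36, but as many regions, 8, were called only at P2. Zfhx3, a homeobox gene, had 7 of 25 and 9 called only at P2. These genes therefore carried single-age calls at other ages too.

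At several other genes of this group calls at P8 alone outnumbered those at P2 alone and at P5 alone, which their choice by the number of members favours. Cdh2 had 6 of its 9 P8-called regions among the members, with 1 called only at P2 and 0 only at P5. The earlier lists had 4 (P2) and 3 (P5) regions of Cdh2. Lpar1, a receptor gene for lysophosphatidic acid, had 6 of 12, with 2 and 0 called only at P2 and P5, and 5 of its 6 members were stand-alone. Arhgap26 had 8 of 32, with 1 called only at P2 and 4 only at P5. Lpp, an adhesion protein gene, had 7 of 15, with 2 and 1. Rgs6, a regulator of G protein signalling, had 6 of 19, with 1 and 2. The margin was narrow at Zhx2, with 8 of 19 beside 7 called only at P2, and at Peli2, with 7 of 15 beside 6. Ank2 had 6 of 15 but 7 called only at P2. Mtcl1 and Srgap3 each had 6 of 15 and Cradd 6 of 19.

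**Figure D3:**
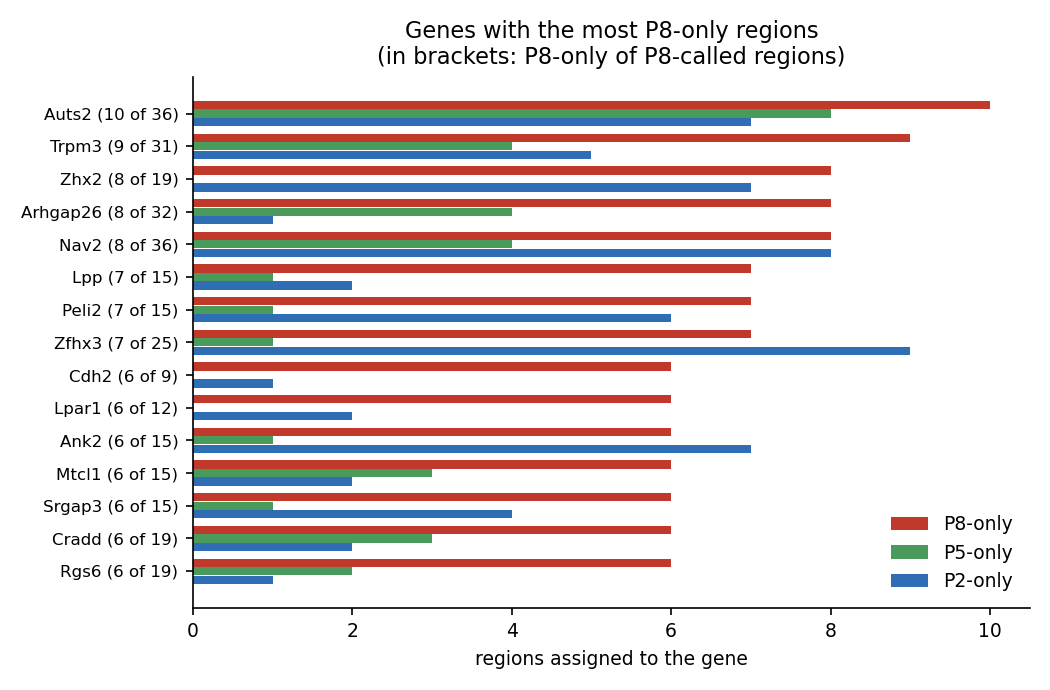
Number of regions called only at P8 (red), only at P5 (green) and only at P2 (blue) assigned to each of the 15 genes with the most regions called only at P8. Brackets give these among all P8-called regions of the gene; Cdh2 (6 of 9) and Lpar1 (6 of 12) have few calls of the other single ages, whereas Zfhx3 has more only at P2 (9) than only at P8 (7).

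For 232 of the 14571 genes with a P8-called region all such regions were members. Of the 3061 genes with a member, 111 had no region assigned at P2 or P5. Neither count was set beside those of the other single-age sets. Assignment to the nearest gene bears on these counts, since Cpsf7 is among the 111 although a P5 peak lies 473 bp from its displaced window. Of these 111, 3 genes had 2 members, which was the most. They were Lnx2, a ubiquitin ligase gene, Mrap, a melanocortin receptor accessory protein gene, and Sec61a1, a translocon subunit gene. Their percentiles ran from 5.54 at Sec61a1 to 33.6 at Lnx2, where a P2 peak of percentile 98.3 lay 5425 bp away. That Lnx2 member lay 5.84 kb past a listed start, so the P2 peak may lie at the start and be assigned to a neighbouring gene. Gfi1, a transcription factor gene of hair cells named after its value was seen, had its sole region of any age at chr5:107723830-107724328, 0.264 kb past a listed start, at percentile 14.8.

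Gene lists were compared with the 10.5% of P8-called regions with an assigned gene that were members, and with 13.9% of those over 1 kb from a gene end. Regions in the lower 50% of the P8 list gave 20.4%, so the share of a list moves with the ranks of its regions. Of 26 lists, 12 lay above 10.5%. The intervals of 3 lists lay wholly above it, those of osteoblasts and osteocytes, the greater epithelial ridge and tectorial membrane, and thyroid hormone response, and that of housekeeping genes lay below. The regions of a gene are not independent of each other, which these intervals do not show.

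The list for osteoblasts and osteocytes, the bone-forming and bone-embedded cells, had 22 members among 97 P8-called regions (22.7%, 15.5 to 32.0). Of its P2-called regions 8.43% were called only at P2, below the 19.4% of all genes, and of its P5-called regions 7.06% only at P5, near the 7.94% of all genes. All 22 were stand-alone and ranked below the middle of the P8 list, and they fell on 14 of its 20 genes with a P8-called region. Among its regions of that lower 50% the share was 37.9% (26.6 to 50.8), and away from gene ends, where all genes had 13.9%, it was 21.8% (14.1 to 32.2). Without the 4 neighbouring genes Dmp1, Ibsp, Mepe and Spp1 it was 15 of 81 (18.5%, 11.6 to 28.3). Osteoclast genes, of the cells that resorb bone, had 2 of 32 (6.25%, 1.73 to 20.1), and chondrocyte genes 10 of 78 (12.8%, 7.12 to 22.0).

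Runx2, the master transcription factor gene of osteoblasts, had 3 members among 15 P8-called regions. One at chr17:44814437-44814935 covered a listed start and stood at percentile 20.1, with the nearest other peak 27145 bp away. The remaining members lay inside the gene at 28.7 and 49.1. Phex, a phosphate-regulating gene of osteocytes, had 2 of 3, at percentiles 12.1 and 16.1, and the nearest other peaks were 41201 bp and 96504 bp away. The ranking values of both (15.7 and 16.8) lay under the lowest of the P2 list (19.5). So did that of the Runx2 member at the start (17.9), while the other Runx2 members had 20.5 and 29.2. Ibsp, which encodes bone sialoprotein, had 2 of 4. One, at chr5:104299002-104299500, covered the printed promoter (percentile 27.3), and one lay 11.2 kb upstream (8.18). Dmp1, of a matrix protein of osteocytes, had 2 of 4, at 6.63 inside the gene and 29.5 downstream of it. Spp1, which encodes osteopontin, had 2 of 3, lying 36.9 kb and 27.4 kb upstream at percentiles 18.4 and 34.3. The second of these had a P5 peak 224 bp away. The ranking values of the Spp1 members were 17.5, under the lowest of the P2 list, and 22.5. Mepe had 1 of 5, Bglap and Bglap2, the osteocalcin genes, 1 of 2 each and Alpl, of the bone phosphatase, 1 of 7. Over the stretch from 110 kb before to 150 kb past the start of Ibsp, 16 regions were called at P8, 9 at P5 and 7 at P2. Of the 16, 7 were members, 3 were shared with P5 alone, 1 with P2 alone and 5 with both ages. Dmp1, Ibsp, Mepe, Bglap, Bglap2 and Alpl were named after their values were seen.

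The greater epithelial ridge and tectorial membrane list had 8 members among 32 P8-called regions (25.0%, 13.3 to 42.1), on 6 of 10 genes, and 7 of the 8 were stand-alone. Its share called only at P2 was 23.3% and only at P5 8.82%, beside 19.4% and 7.94% over all genes. Itga8, an integrin gene, had 3 of 7, and without it the list had 5 of 25 (20.0%, 8.86 to 39.1), an interval that holds 10.5%. Away from gene ends its share was 21.4% (10.2 to 39.5) and in the lower 50% of the list 31.8% (16.4 to 52.7), and these intervals hold the 13.9% and 20.4% of all genes. Of the matrix genes of the tectorial membrane, Ceacam16 had 1 of 2 at percentile 14.3, Tecta 1 of 2 at 8.18, Tectb 1 of 3 at 29.0 and Otoa, which anchors the membrane, 1 of 4 at 8.18. The member of Col11a2, at 59.0, was a displaced window. Tecta also had 3 regions called only at P2, and Tectb 3 only at P5. These 5 genes were named after their values were seen.

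The thyroid hormone response list had 22 members among 114 P8-called regions (19.3%, 13.1 to 27.5), on 9 of 19 genes, with 19 stand-alone. The shares called only at P2 and only at P5 were 13.3% and 10.6%, beside 19.4% and 7.94% over all genes. Away from gene ends the share was 19.4% (12.6 to 28.5), an interval that holds 13.9%, and in the lower 50% of the list 29.0% (19.2 to 41.3), an interval that holds 20.4%. Thrb, the thyroid hormone receptor gene needed for hearing, had 4 of 20 at percentiles from 0.148 to 51.4, with 3 inside the gene. Ppargc1a, a coactivator gene, had 4 of 16 at 8.18 to 10.7. Nrgn, the neurogranin gene, had 3 of its 4, at 3.71 kb, 15.3 kb and 23.9 kb upstream. Hr, a thyroid hormone target and corepressor gene, had 2 of 3 at 32.1 and 47.2. Rxra had 2 of 13, and Dio3, whose enzyme inactivates thyroid hormone, 1 of 2 at 5.52. Without Thrb the list had 18 of 94 (19.1%, 12.5 to 28.3), and without Nrgn 19 of 110 (17.3%, 11.3 to 25.4). Nrgn, Hr, Rxra and Dio3 were named after their values were seen.

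Gap junction genes had 5 members among 32 P8-called regions (15.6%, 6.86 to 31.8), an interval that holds the background. Of the 5, 4 lay at Gjb2 and Gjb6, neighbouring genes on chromosome 14 that encode the main connexins of the cochlea, where 4 of 8 P8-called regions were members. All 4 were stand-alone. One at chr14:57133177-57133675 lay at the start of Gjb6 with percentile 5.30, and no P2 or P5 region was listed at that start. Its ranking value of 13.6 lay under the lowest of the P2 list (19.5) and close to the lowest of the P5 list (13.5). One at chr14:57113756-57114254 lay between the genes at 29.7, one at chr14:57096908-57097406 lay past the end of Gjb2 at 18.5, and one at chr14:57165502-57166000 lay 32.1 kb upstream of Gjb6 at 10.0. The ranking values past Gjb2 (17.5) and upstream of Gjb6 (15.1) also lay under 19.5. The value between the genes (20.9) lay above it. The start of Gjb2, in contrast, was called at all 3 ages, at percentiles 75.4, 63.1 and 70.5. The fifth member of the list lay 101 kb past the start of Gja1, at 51.0. Without Gjb2 and Gjb6 the list had 1 of 24 (4.17%, 0.739 to 20.2).

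**Figure D4:**
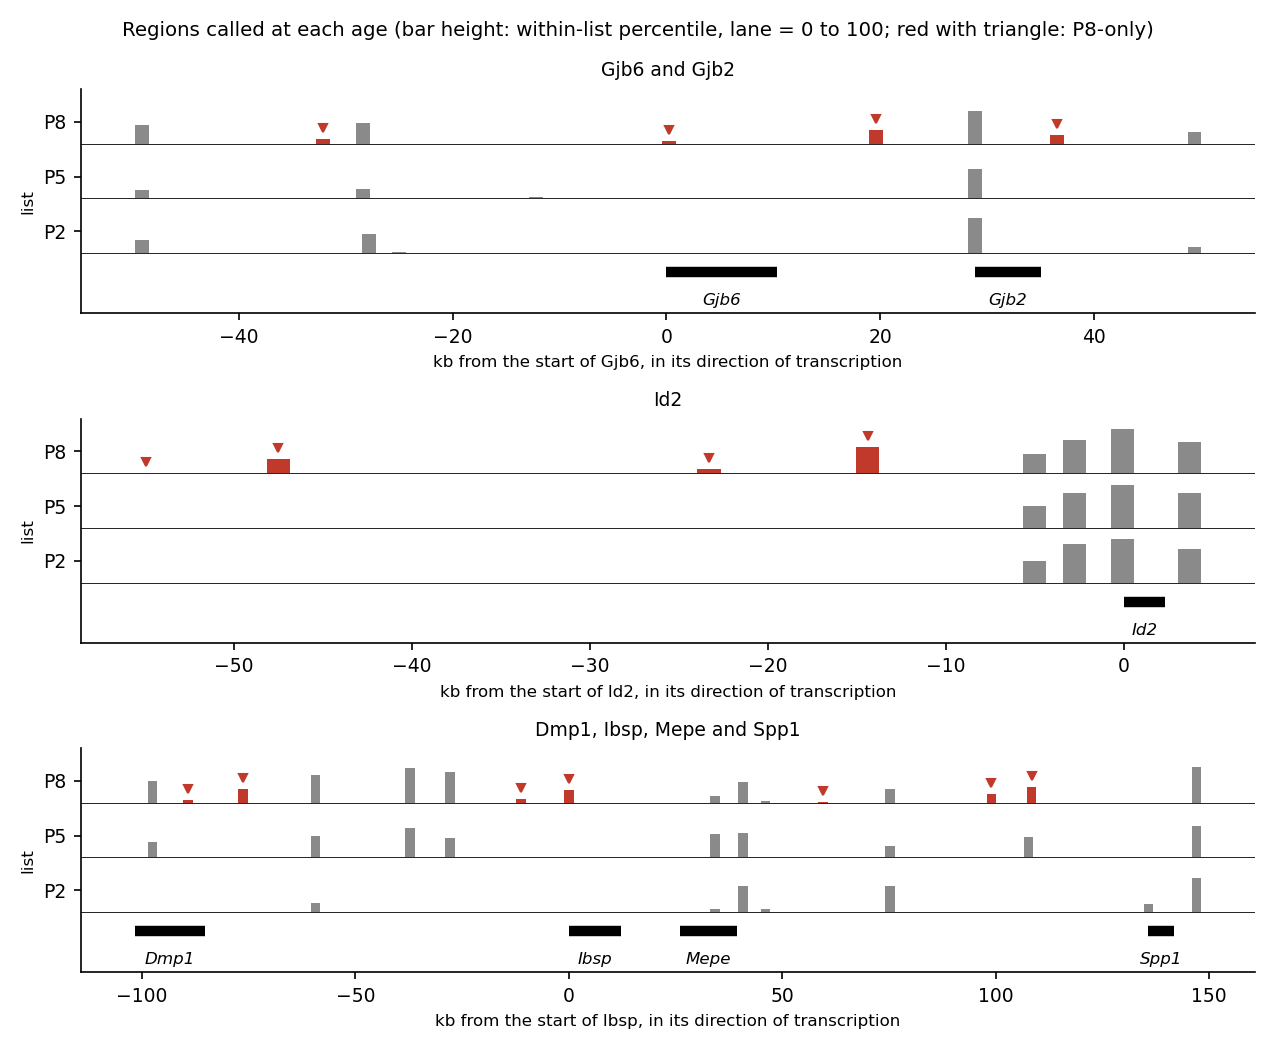
Regions called at P2, P5 and P8 around Gjb6, Id2 and Ibsp, as kb from the start of that gene in its direction of transcription, with bar height as the within-list percentile and gene bodies in black. Red bars with a triangle are called only at P8: 4 of the 8 P8 regions around Gjb6, 4 of 8 around Id2, all upstream, and 7 of 16 around Ibsp.

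Lists of sensory and lateral wall cells lay around the background. P8-called regions lay at 22 of 26 hair cell genes and 21 of 22 supporting cell genes, but also at 15 of 17 genes of brain neurons and oligodendrocytes, so these counts do not tell the tissue. Supporting cell genes had 13 of 90 (14.4%, 8.64 to 23.2), led by Id2 with 4 of 8. Slc1a3, a glutamate transporter gene, had 3 of 16 and Lgr6, a receptor gene of Wnt signalling, 2 of 3. Lgr6 had more regions at the earlier ages, 10 in the P2 list and 8 in the P5 list. Hair cell genes had 5 of 58 (8.62%, 3.74 to 18.6), with Ikzf2, a factor of outer hair cells, at 2 of 5. Marginal cell genes of the stria vascularis had 10 of 75 (13.3%, 7.41 to 22.8), with Kcnq1, their potassium channel gene, at 3 of 13, Shroom3 at 3 of 14 and Eya4 at 2 of 9. Intermediate cell and melanocyte genes had 4 of 47 (8.51%, 3.36 to 19.9), of which Slc24a5 held 2. Fibrocyte and mesenchyme genes had 6 of 47 (12.8%, 5.98 to 25.2), with Otos, of the fibrocyte protein otospiralin, at 2 of 8. Cartilage genes Sox6 and Sox5 had 3 of 15 and 3 of 20, and Col2a1 2 of 9. None of these intervals lay wholly to one side of 10.5%.

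Nerve, glia and other tissues also lay around or below it. Synaptic vesicle and active zone genes had 16 of 114 (14.0%, 8.83 to 21.6). Syn3, a synapsin gene, held 6 of its 23 P8-called regions, with 0 called only at P2 and 3 only at P5, and Syt13 and Syt1, synaptotagmin genes, held 3 of 12 and 2 of 8. Spiral ganglion neuron genes had 5 of 66 (7.58%, 3.28 to 16.5). Schwann cell and myelin genes had 1 of 35 (2.86%, 0.506 to 14.5), an interval that holds 10.5%, and 28.8% of their P2-called regions were called only at P2, against 19.4% over all genes. Genes of brain neurons and oligodendrocytes had 5 of 31 (16.1%, 7.09 to 32.6), with Mobp, a myelin gene, at 2 of 4. Macrophage genes had 2 of 18, both at Ptprc, lymphocyte genes 3 of 35, with Ebf1 at 2 of 15, endothelial and pericyte genes 5 of 44, with Erg at 2 of 8, and skeletal muscle genes 1 of 18. Neutrophil genes had 0 of 4 and erythroid genes 0 of 9, with P8-called regions at 4 of 12 genes in each list. How far the share of each cell type in the tissue moved with age was not tested.

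Among general programmes, the interval of the housekeeping list lay below 10.5% and those of the others held it. Housekeeping genes had 0 of 33, with a Wilson interval up to 10.4%, while the limit of 3 counts that a count of 0 allows is 9.09%, and the median percentile of their P8-called regions was 72.6. Away from gene ends they had 0 of 17 (up to 18.4%), and in the lower 50% of the list 0 of 14 (up to 21.5%). These intervals hold the 13.9% and 20.4% of all genes. Cell cycle genes had 1 of 31 (3.23%, 0.572 to 16.2), with a median percentile of 78.6. Hox genes had 0 of 12, with a Wilson interval up to 24.2% and a limit of 25.0% by 3 counts. Of their 25 P2-called regions 9 (36.0%) were called only at P2, against 19.4% over all genes. Glucocorticoid response genes had 5 of 70 (7.14%, 3.09 to 15.7), with Ddit4 at 2 of 6, and circadian clock genes 6 of 79 (7.59%, 3.53 to 15.6), of which Rora held 4 of 19. In the lower 50% of the list the clock genes had 23.1% (11.0 to 42.1), around the 20.4% of all genes.

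**Figure D5:**
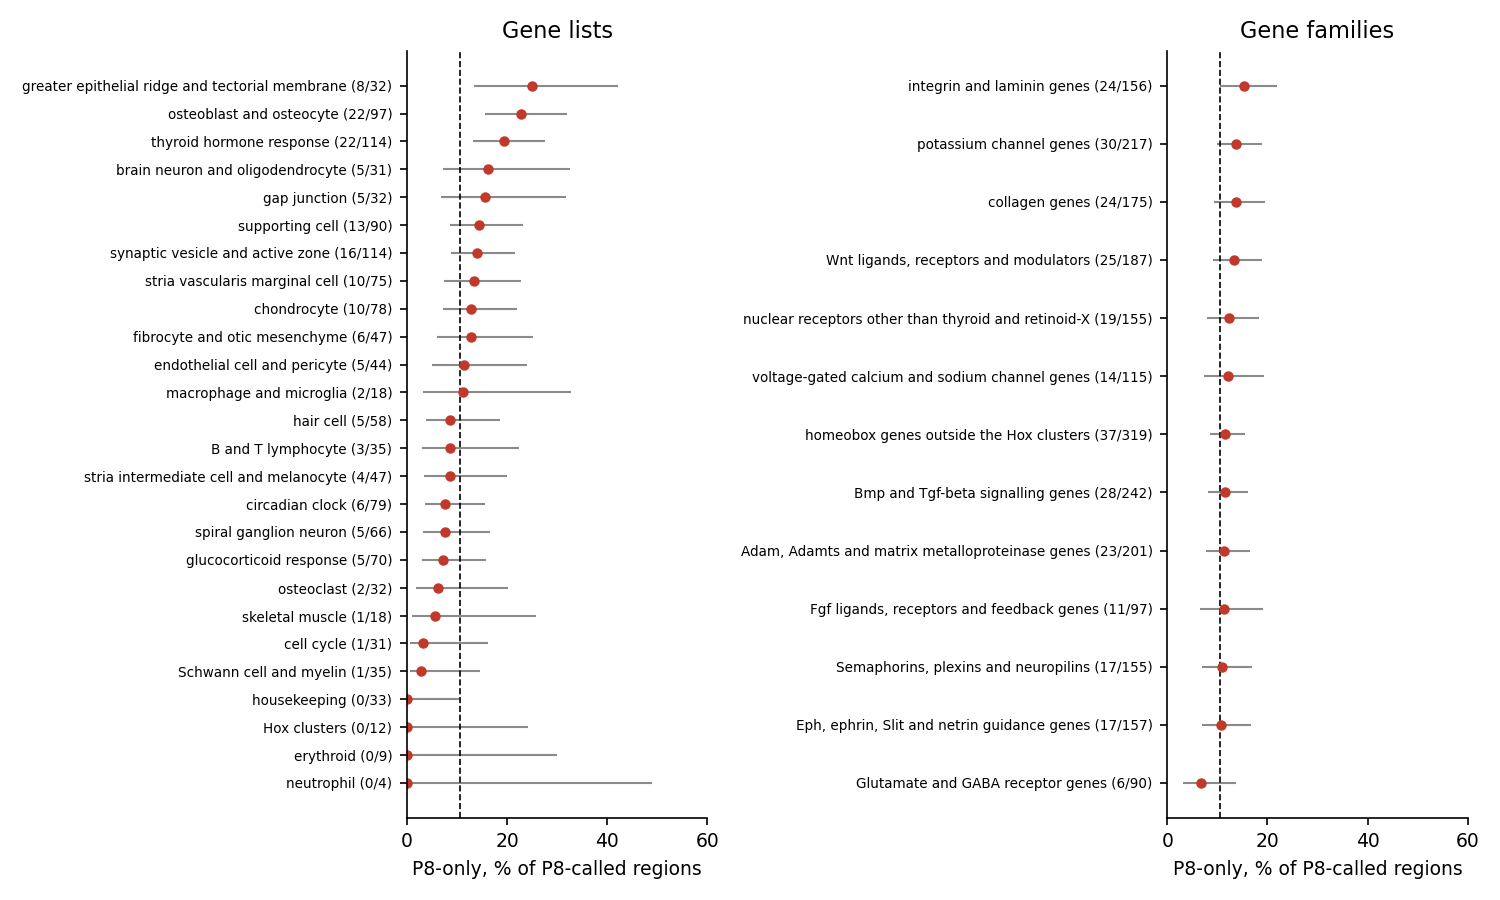
Regions called only at P8 as a percentage of the P8-called regions assigned to each gene list (left) and gene family (right), with Wilson 95% intervals and counts in brackets; the dashed line marks the 10.5% of all genes. The osteoblast, greater epithelial ridge and thyroid hormone lists and the integrin and laminin family have intervals above the line.

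Gene families chosen by name differed less. The median percentile of the P8-called regions of a family ran from 35.3 to 46.0, below the 51.2 of all genes, and lower ranks go with higher shares. Of 13 families, 12 lay above 10.5%, and the interval of 1 lay wholly above it, that of integrins and laminins, matrix receptors and basement membrane chains, with 24 of 156 (15.4%, 10.6 to 21.9). Itga11 had 5 of 9, of which 3 were stand-alone, and Itgb5 3 of 11. Without Itga11 the family had 19 of 147 (12.9%, 8.43 to 19.3). Potassium channel genes had 30 of 217 (13.8%, 9.86 to 19.0), all stand-alone, with Kcnma1, of the large-conductance calcium-activated channel of hair cells, at 5 of 12, Kcnq3 at 3 of 6 and Kcnd3 at 3 of 10. Calcium and sodium channel genes had 14 of 115 (12.2%), with Cacna1d at 4 of 11 and Cacna2d3 at 3 of 18. Collagen genes had 24 of 175 (13.7%), with Col22a1 at 2 of 3, Col8a1 at 2 of 5 and Col24a1 at 2 of 6. Col22a1 had 8 regions in the P2 list, 5 of them called only there. Protease genes of the Adam, Adamts and matrix metalloproteinase families had 23 of 201 (11.4%), with Adamts17 at 3 of 15, Adamts5 at 2 of 2 and Adamts18 at 2 of 4.

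Among signalling and transcription factor families the shares stayed near the background. Wnt genes had 25 of 187 (13.4%), with the receptor genes Ror1 at 4 of 11 and Lrp5 at 4 of 12. Bmp and Tgf-beta genes had 28 of 242 (11.6%), with Smad1, a Bmp effector gene, at 3 of 5 and Bmp6 at 3 of 9. Fgf genes had 11 of 97 (11.3%), with Fgfr2 at 3 of 12. Guidance genes of the Eph, ephrin, Slit and netrin families had 17 of 157 (10.8%), with Slit3 at 4 of 17 and Neo1 at 2 of 6. Semaphorins, plexins and neuropilins had 17 of 155 (11.0%), of which Sema4d, with 5 of 11, and Plxna2, with 3 of 7, held 8. Homeobox genes outside the Hox clusters had 37 of 319 (11.6%), with Irx3 at 3 of 8 after Zfhx3. Nuclear receptor genes other than the thyroid and retinoid-X receptors had 19 of 155 (12.3%), with Esrrg and Ppard at 2 of 7 each. Glutamate and GABA receptor genes, with 6 of 90 (6.67%), were the family below 10.5%, and Gabbr2 held 2 of them. Within the lower 50% of the P8 list the shares of the families ran from 10.7% for these receptor genes to 24.5% for integrins and laminins, around the 20.4% of all genes there. Integrins and laminins, Fgf genes (20.8%) and collagen genes (20.8%) lay above it, and the other families at or below it.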

How the data were processed

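ATAC-seq libraries came from the cochleae of 10 CD1 mice. The authors deposited 1 peak list per age in a layout of 20 columns that matches the output of IDR, which compares the peaks of 2 inputs, and every listed peak has an IDR of at most 0.05. The list's ranking value is a −log10 p-value, as deposited by the authors, and is that of the input where the peak was weaker. The sources used here do not say how animals were combined into the inputs. MACS2 2.1.0, Subread 1.4.6-p3, Trimmomatic 0.33 and build mm10 are named per the submitters' processing notes, without their settings. Library depth is unknown, so no interval that needs it is given.

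Across the lists, peaks sharing 1 bp or more were joined into regions. Starts were read as counted from 0, so printed positions could be off by 1 bp. Regions were annotated with RefSeq genes and promoters of GRCm38.p6 and assigned to the nearest of 21883 protein-coding genes within 100 kb. Of 481 listed symbols 480 matched. The members and gene lists were chosen with earlier results of these data known. Shares carry Wilson 95% intervals. With 1 list per age no test between ages was possible. Text names the 15 genes with most members, the nearest genes of the 15 highest-ranked members, the genes of the 5 longest runs and 5 densest bins, 10 promoter genes, up to 3 genes with at least 2 members per list or family, and Gjb2 and Gjb6; 3 of those 10 promoters are printed. Others are said to be named afterwards. Some genes that this rule or the lists hold are not reported here. Alternatives changed the overlap, distance, IDR, rank, list length and gene-end window. Merging, annotation and counting were tested on simulated data. Python 3.11.15, pandas 2.3.3, numpy 2.4.6, scipy 1.17.1 and matplotlib 3.10.9 were used.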

Additional observations from a re-analysis of the deposited data

How the results depend on the processing

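The number of regions called only at P8 fell from 4811 to 3026 when no P2 or P5 peak was allowed within 5 kb, to 1847 with the upper 50% of each list, and to 265 with the upper 50% of the P8 list against all other peaks. It was within 1.5 times the count given for the other 5 alternatives, from 3393 to 6224. The share near a gene end (11.0%) was 13.4% with an overlap of 50%, 9.40% and 8.13% without peaks within 500 bp and 5 kb, 23% in the upper 50% of the P8 list and 14.7% in that of each list. It was 6.80% and 17.5% for windows of 500 bp and 2 kb, 5.43% for protein-coding ends and 9.53% without displaced windows. The share inside protein-coding genes was 52.5% and 54.2% in the upper 50% of the P8 list and of each list. The median percentile was 16.8 with 50% overlap, 30.6 at an IDR of at most 0.01 and 57.4 under both limits on rank, which by construction remove low peaks.

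The share of members followed by another was 12% without peaks within 5 kb (6.91% of all P8-called regions), 11.6% at the stricter IDR (9.56%), 16.5% (14.2%) with lists of equal length, 11.4% (8.43%) in the upper 50% of each list and 0.755% (1.21%) in the upper 50% of the P8 list. That last share was 2 of 265 members, a count too small to place it below or above the share of all regions. The number of gene lists above all genes, 12, became 5 there and was 8 to 15 otherwise. The greater epithelial ridge, thyroid hormone and gap junction lists stayed above under 11 of 11 alternatives, and the osteoblast list under 10, with 0% in the upper 50% of the P8 list. There the ridge list stayed above by 1 of 10 regions and the gap junction list by 1 of 14, beside 1.08% of all genes. At the stricter IDR, where all genes had 9.07%, the hair cell list moved from 8.62% (5 of 58) to 19.1% (9 of 47). That setting also dropped P2 and P5 peaks. Regions whose P2 or P5 peaks had a weaker IDR then counted as called only at P8, so the 9 are not all members. The supporting cell list moved from 14.4% to 8.45%. Of 26 lists, 9 kept their side under all 11 alternatives. No paired analysis was possible because the files hold 1 list per age and no value per animal. Leaving out an animal could not be run for the same reason. Unknown depth limits all calls, most of all those at the bottom of the list.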
